A study of Mus musculus with 8 samples.

Results

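The trabecular myocardium is the spongy inner layer of the embryonic ventricle, and 10 genes known to mark it in the mouse were described: Bmp10, Slit2, Sema3a, Robo1, Pcsk6, Gja5, Cpne5, Sphkap, Cited1 and Mycl. They were found by symbol among the 15358 genes of the deposited count table, which listed all 10. The RNA came from the whole ventricle of mouse hearts at embryonic day 14.5. In the conditional knockout (cKO) embryos both Lem2 alleles were floxed (f/f; gene symbol Lemd2, a protein of the inner nuclear membrane) and a Cre transgene labelled XMLC2V was present. The control embryos are labelled Lem2 f/f, with no Cre named, and are called littermates. The 4 cKO libraries were compared with the 3 control libraries that have a column in the table, and control replicate 4 was not analysed here. The labels give the transgene as XMLC2V without spelling out its promoter, and Cre itself and the loss of Lem2 cannot be told apart in this design.

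Trabeculae are sheets and ridges of cardiomyocytes that grow into the ventricular lumen under signals from the endocardium, chiefly neuregulin and Notch. Trabecular cells divide less than those of the outer compact layer, depend on the secreted factor BMP10, and later give rise to the Purkinje fibres of the conduction system. Markers of this layer are therefore used to tell whether the inner and outer walls of a mutant ventricle are laid down in their usual proportions.

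None of the 10 trabecular markers differed between cKO and control ventricle past an adjusted p of 0.05 (quasi-likelihood test of edgeR, adjusted by Benjamini-Hochberg over 14887 genes). Over all genes tested 1.09% were called. At an unadjusted p under 0.05 there were 2 markers, Slit2 and Bmp10, beside 17.9% of all genes. DESeq2 called 1, Slit2, beside 4.68% of the genes to which it gave an adjusted p, and it gave none to Mycl. The cKO and control libraries overlapped in all 10, where 16.9% of all genes showed no overlap. Of the 10 markers 7 had a log2 fold change above 0, beside 47.9% of all genes. The log2 fold changes of the markers, cKO over control, ran from -0.28 for Cpne5 to 0.31 for Mycl with a median of 0.12, where the median over all genes was -0.006. Their median size regardless of sign was 0.18, against 0.08 over all genes. For 8 of the 10 the 95% interval lay within a 1.5-fold change in either direction, as it did for 81.7% of all genes, and the exceptions were Cpne5 and Mycl. In bulk tissue, a change in the number of trabecular cells and a change in their RNA per cell cannot be told apart.

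**Figure D1:**
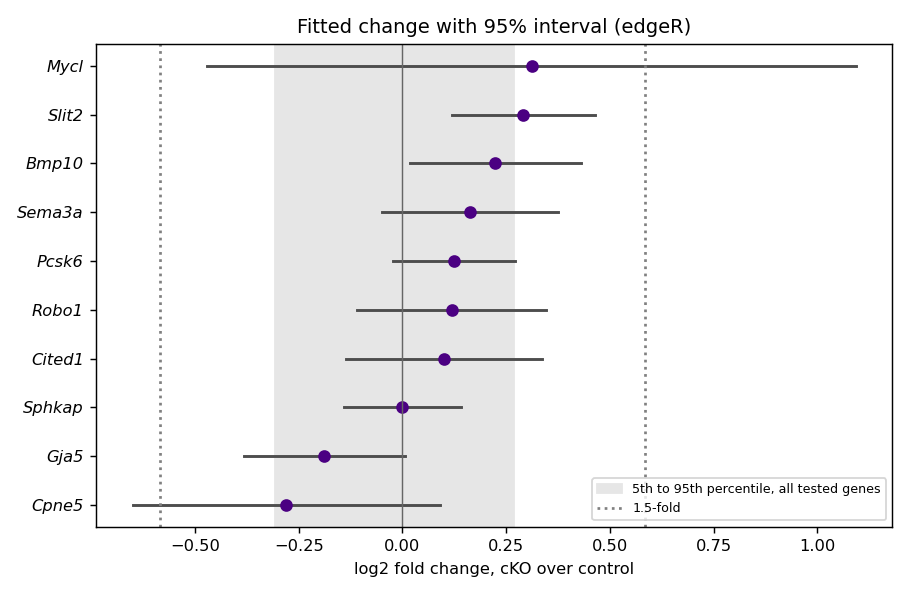
Fitted log2 fold change (cKO over control, edgeR) of each trabecular marker with its 95% interval, over 4 cKO and 3 control libraries; the grey band spans the 5th to 95th percentile of all tested genes (-0.31 to 0.27) and the dotted lines mark a 1.5-fold change. The intervals of Slit2 and Bmp10 lie above 0, and Mycl has the widest interval.

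The libraries held 28921922 to 37967877 counts in cKO and 34667532 to 39351262 counts in control. Lemd2, the targeted gene (mm10 chromosome 17), averaged 16.4 ± 2.01 CPM (counts scaled to library size) in cKO and 35.9 ± 1.28 CPM in control ventricle (SD, 4 and 3 libraries; adjusted p = 0.00135 by edgeR), without overlap. Of all genes, 114 were higher and 48 lower in cKO. Xist, the RNA of the inactive X chromosome, was at 1324 and 1102 CPM in cKO replicates 3 and 4 and at most 0.504 CPM in the other 5 libraries, so genotype and sex are not fully apart. Sample titles carry the code F169 (3 cKO and 2 control libraries) or F191 (cKO replicate 4 and control replicate 3), which the labels do not explain. Levels below are CPM scaled by TMM, a correction for library composition.

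Among secreted signals, Bmp10 (mm10 chromosome 6, 87428994 to 87434513, plus strand) encodes the BMP ligand on which growth of trabecular cardiomyocytes depends. It had 58.5, 72.7, 68.4 and 60.0 CPM in cKO replicates 1 to 4, against 58.3, 48.5 and 60.1 CPM in control replicates 1 to 3. Every cKO library lay above the control mean, but only 2 lay above the highest control. The log2 fold change was 0.22 (SE 0.092, 95% interval 0.018 to 0.43), with an unadjusted p of 0.0362 and an adjusted p of 0.245 by edgeR. As a ratio the interval ran from 1.01 to 1.35, below a 1.5-fold difference. Without control replicate 2, the lowest of the 7 libraries, the Bmp10 difference was 0.13 (adjusted p = 0.523 by edgeR). Without control replicate 3 it was 0.28 (adjusted p = 0.279 by edgeR), the largest value with 1 library left out.

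Slit2 (chromosome 5, 47983155 to 48307737, plus strand) encodes a secreted guidance ligand that is made in trabecular myocardium. Its level was 341, 417, 382 and 388 CPM in the 4 cKO libraries, against 295, 294 and 347 CPM in the 3 controls. The groups overlapped by 1 library each, since cKO replicate 1 lay just under control replicate 3. Slit2 had the smallest p of the 10 markers, with a log2 fold change of 0.29 (SE 0.077, 95% interval 0.12 to 0.46; unadjusted p = 0.00376 and adjusted p = 0.0999 by edgeR). DESeq2 gave it 0.29 with an adjusted p of 0.00559. Its receptor Robo1 (chromosome 16, 72663149 to 73046101, plus strand), which relays SLIT signals into the cell, had 151, 129, 123 and 122 CPM in cKO and 111, 142 and 109 CPM in control ventricle. Here 1 library in each group, cKO replicate 1 and control replicate 2, stood above the rest. The fitted Robo1 difference was 0.12 (95% interval -0.11 to 0.35; adjusted p = 0.582 by edgeR). It was 0.04 without cKO replicate 1, 0.06 without control replicate 1, 0.05 without control replicate 3 and 0.25 without control replicate 2, none called.

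Sema3a (chromosome 5, 13396784 to 13603486, plus strand) encodes a secreted semaphorin that repels growing axons and patterns the sympathetic nerves of the heart. It had 63.5, 72.1, 75.2 and 62.0 CPM in cKO, against 55.0, 57.2 and 70.5 CPM in control. All 4 cKO libraries were above the control mean, and 2 were above the highest control. The log2 fold change of 0.16 (SE 0.094; adjusted p = 0.404 by edgeR) did not pass, and it was 0.10 without control replicate 1 and 0.28 without control replicate 3. Pcsk6 (chromosome 7, 65862136 to 66050387, plus strand) encodes a protease that cuts precursors of TGF-beta family ligands into their active form. Its values were 28.3, 31.1, 31.4 and 27.5 CPM in cKO and 25.3, 27.2 and 28.9 CPM in control. They were close in every library, and the difference of 0.12 (SE 0.066, 95% interval -0.023 to 0.27; adjusted p = 0.361 by edgeR) did not pass either. Without control replicate 1 it was 0.08.

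**Figure D2:**
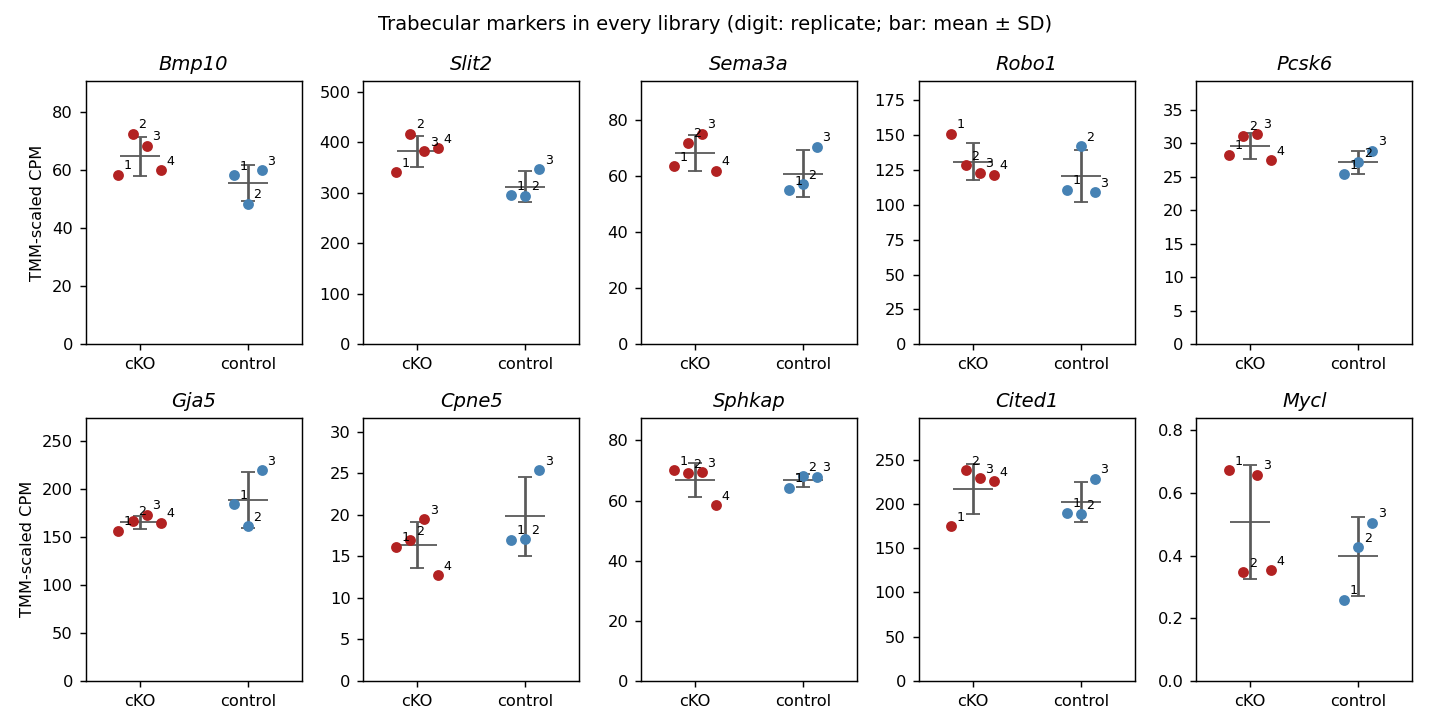
TMM-scaled CPM of each trabecular marker in every library, cKO at the left (4 libraries, red) and control at the right (3 libraries, blue); digits give the replicate, the horizontal bar the mean and the whiskers the SD, and each axis starts at 0. The groups overlap in all 10 panels, and control replicate 3 is the highest control in 8 of them.

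Gja5 and Cpne5 were the markers with lower mean levels in cKO. Gja5 (chromosome 3, 97032402 to 97053635, plus strand) encodes connexin 40, the gap junction protein of trabeculae, the fast conduction system, the atria and arterial endothelium. It had 156, 167, 173 and 164 CPM in cKO, against 184, 161 and 219 CPM in control. The cKO values were tightly grouped and the control values wide, with 1 cKO library below the lowest control and none above the control mean. The fitted log2 difference was -0.19 (SE 0.087, 95% interval -0.38 to 0.0056; adjusted p = 0.294 by edgeR). Control replicate 3 decided much of this value: without it the log2 fold change was -0.06, and without control replicate 2 it was -0.29, neither called.

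Cpne5 (chromosome 17, 29156521 to 29237791, minus strand) encodes a copine, a protein that binds phospholipid membranes in the presence of calcium, and marks the ventricular conduction system. Its level was 16.2, 16.9, 19.5 and 12.8 CPM in cKO and 17.0, 17.1 and 25.3 CPM in control. Thus 3 cKO libraries lay just below or well below the lowest control, while control replicate 3 stood far above the other controls. The fitted log2 difference was -0.28 (SE 0.17, 95% interval -0.65 to 0.091; adjusted p = 0.414 by edgeR), and it was -0.06 without control replicate 3 and -0.17 without cKO replicate 4.

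Sphkap (chromosome 1, 83255444 to 83408201, minus strand) encodes an anchoring protein that binds the regulatory subunit of protein kinase A and is abundant in heart. It had 70.0, 69.1, 69.5 and 58.5 CPM in cKO, against 64.3, 68.1 and 67.9 CPM in control. All values but that of cKO replicate 4 lay within a narrow range. The mean was 66.8 CPM in both groups, and the 95% interval of the log2 difference ran from -0.14 to 0.14, the narrowest among the 10 (adjusted p = 0.999 by edgeR).

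Of the nuclear factors, Cited1 (chromosome X, 102247378 to 102252182, minus strand) encodes a coactivator that binds p300 and CBP but not DNA. It had 175, 238, 229 and 226 CPM in cKO and 190, 188 and 229 CPM in control. The cKO group held both the lowest and the highest of the 7 values. Its fitted log2 difference was 0.10 (SE 0.11; adjusted p = 0.664 by edgeR). With 1 library left out it ran from 0.05 (without control replicate 2; 0.06 without cKO replicate 2 or control replicate 1) to 0.20 (without control replicate 3; 0.19 without cKO replicate 1), never called. Because Cited1 is X-linked, the value with both Xist-expressing libraries left out was also taken and was 0.03 (adjusted p = 0.944 by edgeR). Mycl (chromosome 4, 122995931 to 123002481, plus strand), a MYC family transcription factor, was close to the limit of detection. It had 20, 13, 19 and 13 counts in cKO, against 9, 17 and 18 counts in control, or 0.348 to 0.672 CPM and 0.259 to 0.506 CPM. The exact 95% Poisson interval of the lowest count, 9, ran from 4.12 to 17.1 and that of the highest, 20, from 12.2 to 30.9, counting error only. The fitted difference was 0.31, with a 95% interval from -0.47 to 1.09 (adjusted p = 0.691 by edgeR) that is too wide to give a direction. It ran from 0.09 without control replicate 1 to 0.51 without control replicate 3, was 0.15 without cKO replicate 1 and was 0.16 without cKO replicate 3.

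Levels of different genes were compared per kilobase of exon (the union of exons in GENCODE M21, same genome build). Cited1 was the highest, with 124 ± 16.2 CPM per kb in cKO and 115 ± 13.0 CPM per kb in control (SD, 4 and 3 libraries). Gja5 followed with 28.7 ± 1.21 in cKO and 32.7 ± 5.08 CPM per kb in control. Slit2 (15.0 ± 1.23 in cKO, 12.3 ± 1.19 in control) and Bmp10 (14.4 ± 1.51 in cKO, 12.4 ± 1.39 in control) came next and overlapped in both groups. Robo1, at 7.94 in cKO and 7.31 CPM per kb in control, and Sphkap, at 6.96 in cKO and 6.95 CPM per kb in control, overlapped among the controls. The levels of Pcsk6 (5.70 in cKO and 5.23 CPM per kb in control) and Sema3a (4.92 in cKO and 4.39 CPM per kb in control) overlapped as well. Cpne5 lay at 1.20 CPM per kb in cKO and 1.46 CPM per kb in control, and Mycl was last, at 0.126 in cKO and 0.0984 CPM per kb in control. The order of means differed between the groups only for Slit2 and Bmp10, whose ranges overlap. A union of exons lengthens genes with many isoforms, so these levels are approximate.

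The markers were more variable between the libraries of a group than most genes. Of the 9 markers with a mean of at least 10 CPM, 8 had a coefficient of variation above the median of all 9962 such genes among the cKO libraries (median 4.43%) and 8 among the controls (median 3.93%). Cpne5 varied most, by 17.0% in cKO and 24.3% in control. Gja5 varied by 4.20% among cKO and by 15.5% among control libraries, and Sphkap by 8.27% and 3.22% in cKO and control. With 4 and 3 libraries each such value is imprecise. Each group holds libraries of both title codes, and cKO holds libraries with and without Xist, so the spread is not that of embryos alone. Control replicate 3 held the highest control value for 8 of the 10 markers, all but Robo1 and Sphkap, where it was the highest control for 34.6% of all genes. Among cKO libraries, replicate 4 was the lowest for 5 markers, against 26.4% of all genes, and replicate 1 for 4, against 28.6%.

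**Figure D3:**
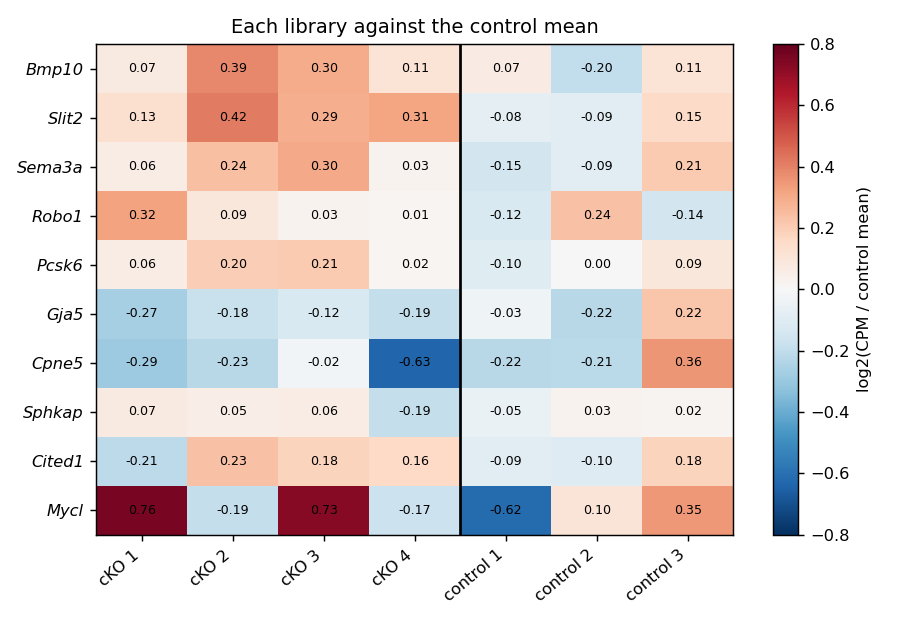
Log2 ratio of each library's TMM-scaled CPM to the control mean for the 10 markers (rows), with the 4 cKO libraries left of the black line and the 3 controls right of it; red is above and blue below the control mean. Control replicate 3 is above the control mean for 9 markers, and Gja5 and Cpne5 are the rows in which every cKO library is below it.

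The values were also taken separately under the 2 title codes. Within F169 the log2 fold change was above 0 for 9 of the 10 markers (49.0% of all genes), among them Slit2 (0.37, adjusted p = 0.148 by edgeR), Sema3a (0.33, adjusted p = 0.152) and Bmp10 (0.32, adjusted p = 0.263), and 0 were called. For 5 markers, Bmp10, Slit2, Sema3a, Pcsk6 and Sphkap, all 3 cKO libraries of F169 lay above both of its controls, as for 16.0% of all genes. In F191, with 1 library per group and no test, the cKO library was above the control for 2 markers, Slit2 (log2 ratio 0.16) and Robo1 (0.16), where 50.0% of all genes were higher. The largest F191 ratios the other way were -0.99 for Cpne5, -0.52 for the sparsely counted Mycl and -0.41 for Gja5. Slit2 and Robo1 were thus the 2 markers with a higher cKO level under both codes, a share that was not counted over all genes. For Robo1 the F169 groups overlapped (log2 0.09, adjusted p = 0.779 by edgeR). The F191 cKO library is also 1 of the 2 that express Xist while its control is not, so code, sex and embryo cannot be told apart there.

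Signals known to drive trabeculation were measured beside the markers. Of 16 genes of neuregulin-ERBB and Notch signalling, 0 were called by edgeR, 4 had an unadjusted p under 0.05 and DESeq2 called 2, Hey2 and Erbb4, with a list median of -0.0079. Hey2, a HEY family repressor that marks the compact layer, averaged 127 ± 13.1 CPM in cKO and 162 ± 14.5 CPM in control (log2 -0.35, with an adjusted p of 0.0763 by edgeR and 0.00148 by DESeq2). The neuregulin receptors of cardiomyocytes, Erbb4 (75.6 ± 3.39 CPM in cKO, 85.6 ± 4.44 CPM in control) and Erbb2 (155 ± 6.50 CPM in cKO, 172 ± 10.3 CPM in control), and the Notch ligand Jag2 (17.6 ± 0.698 CPM in cKO, 20.4 ± 1.84 CPM in control) had adjusted p of 0.1, 0.155 and 0.155 by edgeR. Among 18 receptors, SMADs and reported targets of BMP10 signalling, 0 were called by edgeR or DESeq2, with 4 at an unadjusted p under 0.05 and a median of 0.0044. These were the receptor Bmpr1a (log2 0.10), the inhibitory Smad7 (0.20), the co-receptor Eng (0.16) and Cdkn1c (0.12), a cell cycle inhibitor that BMP10 is known to hold down, with adjusted p from 0.186 to 0.256 by edgeR.

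**Figure D4:**
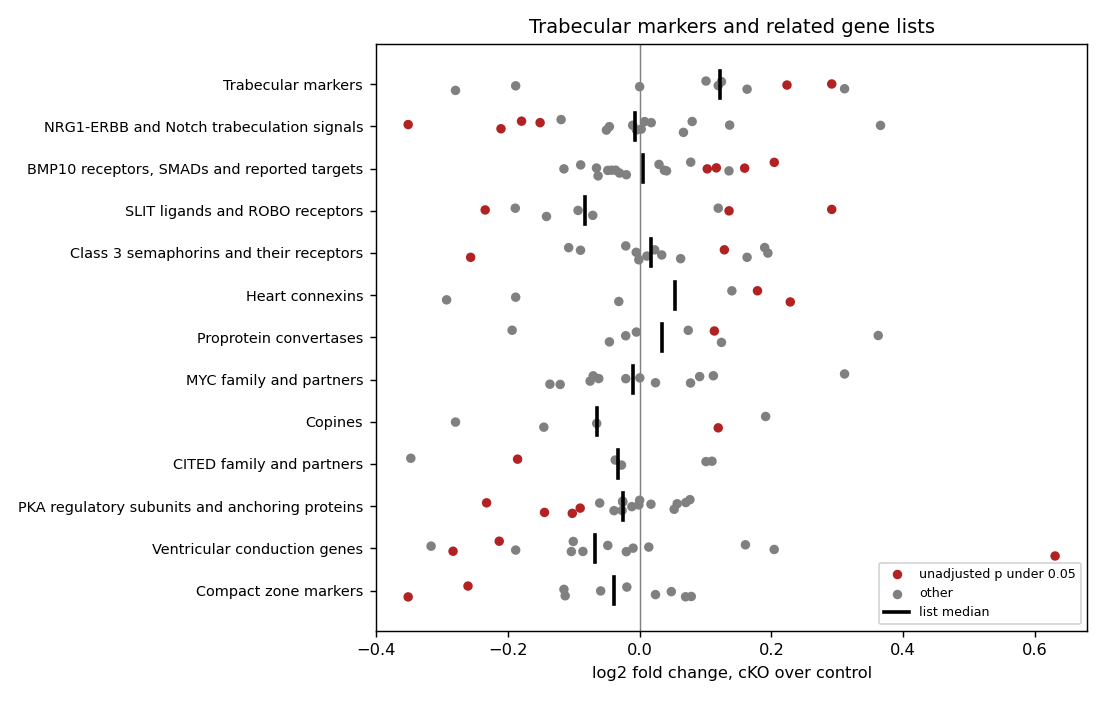
Log2 fold change (cKO over control, edgeR) of the tested genes in the trabecular marker list and 12 related lists, 1 point per gene, with the list median as a black bar and genes at an unadjusted p under 0.05 in red. No gene in these lists passed an adjusted p of 0.05, and the list medians lie between -0.083 and 0.12.

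The relatives of each marker were described in the same way. In the SLIT and ROBO list, which had 8 of 9 genes tested, Srgap2, an intracellular partner of ROBO receptors, had 0.14 and the endothelial receptor Robo4 -0.23, with adjusted p of 0.117 and 0.248 by edgeR. Slit3 had -0.19 and Robo2 -0.09, on the other side of 0 from Slit2 and Robo1, and the list median was -0.083 with 0 called by edgeR and 1, Slit2, by DESeq2. Of 14 class 3 semaphorins and receptors edgeR called 0 and DESeq2 called 2, the semaphorin co-receptors Nrp2 (44.9 ± 3.86 CPM in cKO, 53.6 ± 3.44 CPM in control, adjusted p = 0.102 by edgeR and 0.0269 by DESeq2) and Nrp1 (392 ± 13.1 CPM in cKO, 359 ± 13.2 CPM in control, adjusted p = 0.155 by edgeR and 0.0452 by DESeq2). Nrp1 and Nrp2 differed in sign, and 2 of the 14 had an unadjusted p under 0.05. The heart connexins had 0 of 6 called by either tool and 2 at an unadjusted p under 0.05, Gja4, the connexin 37 gene of arterial endothelium (0.23), and Gja3 (0.18). Gja1, the connexin 43 gene of working myocardium, had 695 ± 47.9 CPM in cKO and 630 ± 63.7 CPM in control (log2 0.14, adjusted p = 0.363 by edgeR).

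Among 8 tested proprotein convertases 0 were called by either tool, with Furin, which shares substrates with Pcsk6, at 0.11 (adjusted p = 0.143 by edgeR and the 1 unadjusted p under 0.05) and the natriuretic peptide convertase Corin at -0.19 (adjusted p = 0.315 by edgeR). Of 12 MYC family genes and partners 0 were called by either tool and 0 had an unadjusted p under 0.05. Mycn, the family member of the compact layer, had 68.6 ± 6.04 CPM in cKO and 67.5 ± 3.19 CPM in control, a log2 difference of 0.02 (95% interval -0.12 to 0.17). The 5 tested copines and the 6 tested CITED genes and partners had 0 called by either tool and 1 gene each at an unadjusted p under 0.05, Cpne1 (0.12) and Cited4 (-0.19). Of 17 protein kinase A subunits and anchoring proteins edgeR called 0 and DESeq2 called 1, the regulatory subunit Prkar2b (22.5 ± 1.12 CPM in cKO, 26.5 ± 1.04 CPM in control, adjusted p = 0.0798 by edgeR and 0.0319 by DESeq2). It was 1 of 4 genes in that list at an unadjusted p under 0.05, beside Akap10 (-0.14), Akap7 (-0.10) and Akap9 (-0.09), where Sphkap itself was at 0.

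Conduction genes and compact-layer markers bear on the same layers of the wall. Of 14 conduction genes 0 were called by edgeR, 3 had an unadjusted p under 0.05, and DESeq2 called those 3. Nppa, the atrial natriuretic peptide gene, which also marks trabeculae, had the largest difference, with 1902 ± 339 CPM in cKO and 1228 ± 153 CPM in control (log2 0.63, adjusted p = 0.061 by edgeR and 0.0127 by DESeq2). Every cKO library of Nppa lay above every control. The calcium channel gene Cacna1g (log2 -0.28, adjusted p = 0.0928 by edgeR and 0.0219 by DESeq2) and the potassium channel subunit Kcne1 (-0.21, 0.127 by edgeR and 0.0464 by DESeq2) were on the other side, with Gja5. Of 10 compact-layer markers edgeR called 0, DESeq2 called 1, Hey2, and 2 had an unadjusted p under 0.05, Hey2 and Prdm16, a transcriptional regulator of compact myocardium (42.1 ± 5.06 CPM in cKO, 50.5 ± 5.06 CPM in control, log2 -0.26, adjusted p = 0.196 by edgeR). The compact list had a median of -0.04, against 0.12 for the trabecular markers, and a difference between the lists was not tested.

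Several markers are also made outside the trabeculae, so the other cell types of the ventricle were read from their own markers. Cardiomyocyte markers summed to 40520 to 47330 CPM in cKO and 44740 to 47680 CPM in control, with 0 of 12 called by edgeR, 3 at an unadjusted p under 0.05, while DESeq2 called 1, Ryr2 (log2 -0.22). The 10 atrial markers reported here, listed because the atria express Bmp10 and Gja5, summed to 3352 to 3711 CPM in cKO and 3464 to 3862 CPM in control. Pam (1588 CPM in cKO, 1750 CPM in control) and Myl4 (1299 and 1187 CPM) made up most of it. The sum therefore says little of the other atrial markers. Sln, which is largely atrial, averaged 3.79 CPM in cKO and 5.11 CPM in control. Arterial and coronary endothelial markers, a list that holds Gja5, summed to 424 to 460 CPM in cKO and 451 to 504 CPM in control, with 0 of 10 called by edgeR, 5 at an unadjusted p under 0.05, while DESeq2 called 2, Bmx (log2 0.25) and Apln (-0.43). Gja5 was the largest member of that sum, at 165 CPM in cKO and 188 CPM in control. The arterial sum is therefore no separate reading of Gja5. Endocardial and endothelial markers summed to 1952 to 2038 CPM in cKO, above the 1822 to 1925 CPM of the controls, with 0 of 12 called by edgeR, 4 at an unadjusted p under 0.05, while DESeq2 called 1, Npr3 (log2 0.29). The largest differences in mean level were those of Npr3 (259.8 CPM in cKO, 212.4 CPM in control) and Eng (293.1 and 262.5 CPM). Cdh5 (log2 -0.01), Kdr (-0.09), Egfl7 (-0.02) and Esam (-0.06) lay below 0, Pecam1 was at 0.03, and the rest of the list lay above 0. Npr3 was called by edgeR within F169 (log2 0.38, adjusted p = 0.0486), on 3 cKO and 2 control libraries. It was not called with all libraries (adjusted p = 0.1 by edgeR) or with both Xist-expressing libraries left out. Macrophage markers summed to 126 to 144 CPM in cKO and 115 to 120 CPM in control. Of these 10 markers 9 had an unadjusted p under 0.05, DESeq2 called 2, C1qb and C1qc, and the list median was 0.37. Mrc1, a mannose receptor, was on the other side (log2 -0.21, adjusted p = 0.0895 by edgeR), with every cKO library below every control. By edgeR 1 was called, C1qb, a complement component, higher in cKO (log2 0.45, adjusted p = 0.0425), and C1qc had 0.42 (adjusted p = 0.0741). The C1qb call was lost within F169 (0.0887), after adjusting for Y-linked expression (0.202), when both Xist-expressing libraries were left out (0.238) and without any single library but control replicate 3 (0.07 to 0.115). Epicardial, fibroblast, smooth muscle, neural crest and red cell lists had 0 genes called by edgeR or DESeq2, 5 at an unadjusted p under 0.05 in all, and medians from -0.37 to 0.077. The summed level of each of these lists overlapped between the groups. Smooth muscle and pericyte markers summed to 1701 to 2364 CPM in cKO and 1531 to 1736 CPM in control. Of that list Acta2 (log2 0.44, without overlap) and Tagln (0.64) were higher and Myh11 (-0.53) lower in cKO. Their adjusted p were 0.118, 0.229 and 0.274 by edgeR. No tested marker of the cell type lists was at 0 in any library. What part these cell types have in the values of Bmp10, Gja5 and Slit2 was not tested.

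**Figure D5:**
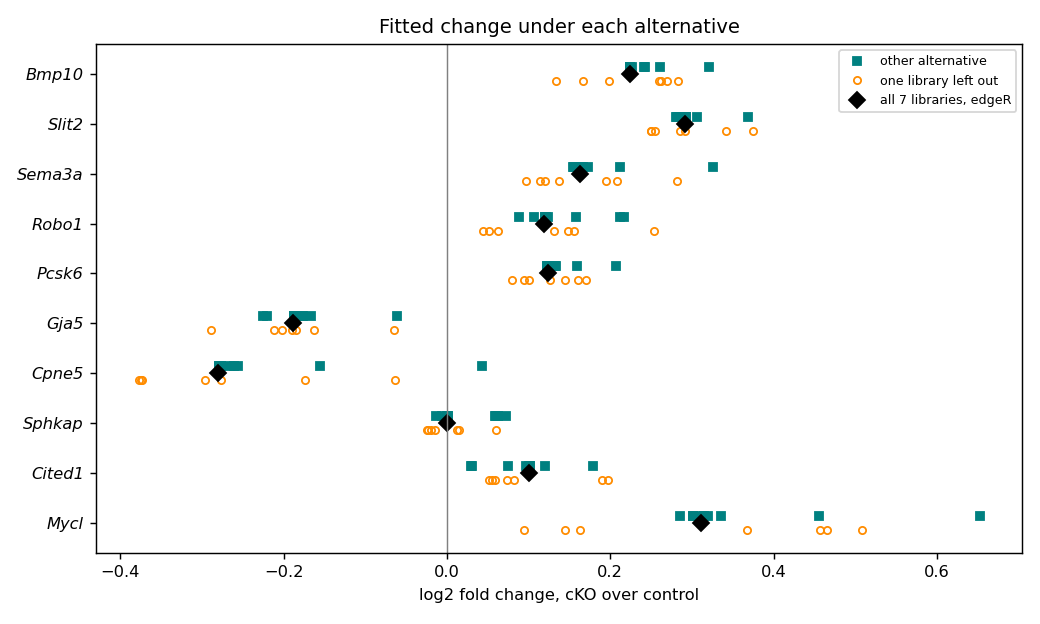
Log2 fold change (cKO over control) of each trabecular marker with all 7 libraries in edgeR (black diamonds), with 1 library left out (open orange circles, 7 per gene) and under the other 9 alternatives (green squares). Slit2, Bmp10, Sema3a, Robo1, Pcsk6, Cited1 and Mycl stay above 0 and Gja5 below 0 throughout, while Sphkap spans 0 and Cpne5 crosses it within F169.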

How the data were processed

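Total RNA of whole ventricle had been made into directional libraries, per the labels' protocols. The table that the authors deposited holds estimated counts per gene, 30.3% of them more than 1e-09 from a whole number. The submitters' processing notes name STAR 2.4.2a, HTSeq 0.6.1 and the build mm10 but not their roles. How non-whole values arose and the strand setting are not stated there. Columns were matched to samples by the code in the titles. The last of the value columns, 1 in all, matched no title and equalled the row sum in all 15358 genes (relative tolerance 1e-06), so it was not used.

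Counts were rounded. Genes were filtered with filterByExpr (minimum count 10; 471 removed, 14887 tested), scaled by TMM and tested with the quasi-likelihood F-test of edgeR 4.0.16 (R 4.3.3), with Benjamini-Hochberg adjustment over all genes and a threshold of 0.05. Alternatives were DESeq2 1.42.0 and its size factors, limma-voom (limma 3.58.1), no filter, a replicate block, the title code, sex and leaving out libraries. The edgeR fit was first tested on simulated data. No marker overlaps another listed gene. Members and lists were chosen with earlier results of these data known, as were the alternatives. From each list up to 4 genes with the smallest p, and those called, were to be named; Robo2, Mycn, Gja1 and Sln were named after their values were seen. No litter is named, and p-values measure only how these samples spread. Of the listed genes, 1 atrial marker is not reported here.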

Additional observations from a re-analysis of the deposited data

Results flagged for a closer look

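Sphkap in cKO replicate 4, at 58.5 CPM, stood apart from the other 3 cKO libraries (69.1 to 70.0 CPM). Its gap took 0.922 of the range of the group, above the 95% critical value of Dixon's test for 4 samples, which chance passes in about 1 of 20 groups. It was the only marker of the 10 to do so, and Cited1, low in cKO replicate 1, reached 0.805.

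For 4 markers all cKO libraries of F169 lay above its controls while the cKO library of F191 lay below its control, a pattern seen in 7.91% of all genes. Their F191 log2 ratios were -0.00239 for Bmp10, -0.186 for Sema3a, -0.0714 for Pcsk6 and -0.214 for Sphkap. An interaction term between code and genotype, chosen after seeing the data, called none of the 10 (smallest unadjusted p = 0.000258 for Cpne5, adjusted p = 0.349 by edgeR) and 2 of all genes. At an unadjusted p under 0.05 it held 4 markers, Cpne5, Sema3a, Sphkap and Gja5, against 4.51% of all genes. It rests on 1 library per group in F191.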

How the results depend on the processing

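Over 16 alternatives, 148 of the 160 marker values kept their direction and their side of the threshold, and 8 of the 10 markers never changed sign. The 148 include Mycl under DESeq2, which kept its direction but was given no adjusted p. DESeq2 called 1 marker, Slit2 (log2 0.292), and the other alternatives called none. Cpne5 turned to 0.0426 within F169. Sphkap, at -0.000207 with all libraries, turned to 0.000772 with DESeq2 size factors, 0.000351 with no filter, 0.000827 with DESeq2, 0.0593 with the replicate block, 0.0728 within F169, 0.0625 adjusted for Y-linked expression, 0.0599 with both Xist-expressing libraries left out, and up to 0.0606 with 1 library left out (lowest -0.0249). The 162 genes called in all became 629 with DESeq2, 13 with the replicate block, 20 within F169, 20 adjusted for Y-linked expression, 17 with both Xist-expressing libraries left out and 28 to 133 with 1 library left out. For these changes the cause was not tested. The titles do not say that replicate numbers pair the samples. Deviations from the group means correlated at 0.0386, -0.0751 and -0.0791 for same-numbered libraries, and from -0.2 to 0.189 for different numbers. Such values cannot settle whether the samples are paired. The replicate block called 0 markers and ended the call of C1qb (adjusted p = 0.154 by edgeR). In that block cKO replicate 4 had no analysed control of its number, and replicate 3 joined an F169 cKO library with an F191 control. Lemd2 was called throughout (log2 -1.01 to -1.19). Among the markers, Mycl had the fewest counts, and what part depth has in its spread was not tested.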
